A study of Mus musculus with 12 samples.

Results

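The 10 genes described here encode the core of the transforming growth factor-β (TGF-β) pathway: the ligand gene Tgfb1, the receptor genes Tgfbr1, Tgfbr2 and Tgfbr3, the signal transducers Smad2, Smad3 and Smad4, the inhibitory Smad7, and the repressors Ski and Skil. They were taken from the count tables by gene symbol, and all 10 were found among the 40840 genes listed and passed the low-count filter that left 13570 genes for testing. RNA-seq had been performed on OTII cells, which are CD4+ T cells that carry a transgenic receptor for a peptide of ovalbumin (OVA), after their transfer into WT or Il6-/- recipient mice. The genotype is therefore that of the recipient; the donor OTII cells were the same in all groups and Il6-/- recipients lacked IL-6 in every cell of host origin. All recipients had been sensitized intranasally with house dust mite (HDM) extract containing LPS, together with LPS-free OVA, and the donor cells had been sorted from the mediastinal lymph nodes with antibodies to CD4, CD44, CD45.1 and B220. According to the authors' methods, the recipient and OTII strains were on the B6 background. The 4 groups were WT Day 3, Il6-/- Day 3, WT Day 5 and Il6-/- Day 5, with 3 libraries each. Neither the age of the mice nor whether the 3 libraries of a group came from separate mice or pools is given in the sources used here, so p-values measure the spread between these libraries, which may be technical. Blood is named as the tissue in the sample labels, whereas the design text gives mediastinal lymph nodes, and the submitters count the days from 1 and not from 0. The treatment in the sample labels does not mention LPS, which is taken from the authors' description.

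TGF-β is secreted in a latent form and, once released, binds the type II receptor TGFBR2, which recruits and phosphorylates the type I receptor TGFBR1; the coreceptor TGFBR3 (betaglycan) presents the ligand. The active receptor phosphorylates SMAD2 and SMAD3, which enter the nucleus with SMAD4 and regulate transcription, while SMAD7 blocks the receptor and SKI and SKIL (SnoN) hold SMAD complexes in a repressive state. In CD4+ T cells the pathway is known for restraining activation and effector differentiation, for inducing Foxp3 and, together with IL-6, for the Th17 program.

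Between 16125947 and 26111657 reads were counted on genes per library. The share of reads on genes was 60.2% to 62.2% on Day 3 and 52.5% to 56.7% on Day 5, and the share outside genes 11.7% to 12.9% and 15.2% to 17.3%. The 7 CD4 T-cell markers fitted the label, with a summed level of 5610 to 7174 CPM (on library sizes scaled by TMM) on Day 3 and 9587 to 11370 on Day 5. The 6 B-cell markers summed to at most 10.7 CPM, the 8 myeloid and dendritic-cell markers to 11.7 to 46.3, the 4 platelet markers to at most 2.54 and the 5 CD8 T- and NK-cell markers to 62.2 to 112, of which Cd8b1 had the most. Cd8b1 had group means of 62.7 to 74.7 CPM and Klrb1c of 4.82 to 33.1 CPM. Cd8a of the same list had group means of 0.0653 to 1.04 CPM, and Ncr1 and Klrk1 did not pass the low-count filter. The platelet gene Ppbp had no count in any library. The 6 genes for lung epithelium and stroma summed to 83.6 to 167 CPM, led by Pecam1 with group means of 85.5 to 142 CPM. Sftpc of that list had group means of 0.0520 to 6.85 CPM. Sftpb, Scgb1a1 and Epcam had group means of at most 1.10, 1.18 and 0.983 CPM, and Col1a1 did not pass the low-count filter. The 5 regulatory T-cell markers summed to 216 to 304 CPM, led by Ctla4 with group means of 119 to 178 CPM. Foxp3 of that list had group means of 2.84 to 7.60 CPM. In these bulk libraries, fewer cells of a type and less RNA per cell cannot be told apart.

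On the mouse genome GRCm39, Tgfb1 lies on chromosome 7, Tgfbr1 and Ski on chromosome 4, Tgfbr2 and Smad3 on chromosome 9, Tgfbr3 on chromosome 5 and Skil on chromosome 3. Reads were counted without strand. Exons of Tgfbr2 share 443 bp with Gm4668 and exons of Tgfbr1 share 61 bp with Gm32435, so reads in these stretches could not be assigned to 1 gene, while the other 8 genes share no exon bases with a counted gene. The 250 bases before the annotated start of the canonical transcript are shown for Tgfbr2 and Smad3, because these genes passed the test between the genotypes on Day 3, and for Skil, which encodes a repressor of SMAD complexes. Capitals mark CAGAC, the short sequence that SMAD3 and SMAD4 bind, or GTCTG where it lies on the other strand.
Tgfbr2: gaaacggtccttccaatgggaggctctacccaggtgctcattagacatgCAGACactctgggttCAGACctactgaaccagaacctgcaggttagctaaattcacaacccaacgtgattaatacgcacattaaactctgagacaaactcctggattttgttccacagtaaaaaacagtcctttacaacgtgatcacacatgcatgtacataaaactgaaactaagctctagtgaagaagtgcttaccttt
Smad3: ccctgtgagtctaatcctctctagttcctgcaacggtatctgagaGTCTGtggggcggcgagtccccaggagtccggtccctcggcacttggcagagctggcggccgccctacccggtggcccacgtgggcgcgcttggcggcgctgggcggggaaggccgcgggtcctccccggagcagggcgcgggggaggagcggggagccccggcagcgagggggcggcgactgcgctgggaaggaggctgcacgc
Skil: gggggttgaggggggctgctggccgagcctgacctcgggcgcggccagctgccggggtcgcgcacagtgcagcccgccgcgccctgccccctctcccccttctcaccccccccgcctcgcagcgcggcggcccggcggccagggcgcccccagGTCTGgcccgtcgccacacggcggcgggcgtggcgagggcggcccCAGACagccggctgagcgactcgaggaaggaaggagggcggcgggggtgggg
The windows are chr9:116004801-116005050 on the minus strand for Tgfbr2, chr9:63665477-63665726 on the minus strand for Smad3 and chr3:31148566-31148815 on the plus strand for Skil. The Tgfbr2 window lies within the annotated gene Gm4668 and the Skil window within Gm65753, both on the opposite strand, and the Smad3 window overlaps no annotated gene. CAGAC or GTCTG occurred 2 times in the windows of Tgfbr2 and Skil, 1 time in those of Smad3, Tgfbr1 and Smad4, and not in those of Tgfb1, Tgfbr3, Smad2, Smad7 and Ski. It was found in 41.3% of the windows of 21770 protein-coding genes, so these 5 of 10 genes are near the background. The palindrome GTCTAGAC, the optimal SMAD-binding element, which does not contain CAGAC, was present 1 time in the Smad7 window and in 0.239% of all windows. The AP-1 sequence TGANTCA was in 6.17% of all windows and in none of the 10.

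Per kilobase (kb) of exon, Tgfbr2 had the highest level of the 10 genes in every group and Smad7 the lowest. On Day 3 in WT recipients, the mean level was 17.5 ± 0.830 CPM per kb (SD, n = 3) for Tgfbr2, 13.6 ± 1.92 for Smad3 and 10.3 ± 0.559 for Smad2. Below them came Tgfb1 at 6.64 ± 0.366, Skil at 6.59 ± 0.730, Ski at 5.69 ± 0.607 and Tgfbr3 at 5.67 ± 0.525, and each of these 4 overlapped its neighbour in the order. Smad4 at 3.19 ± 0.30, Tgfbr1 at 2.25 ± 0.0764 and Smad7 at 0.675 ± 0.105 stood apart from each other and from the rest. In Il6-/- recipients on Day 3 the order differed at 1 place, with Smad2 at 9.76 ± 0.219 CPM per kb above Smad3 at 8.41 ± 0.664, and their libraries did not overlap. On Day 5, Tgfbr3 was second to Tgfbr2 in both genotypes, at 10.7 ± 0.699 CPM per kb (WT) and 10.7 ± 0.711 (Il6-/-), but its libraries overlapped those of the next gene, Smad3 (WT) or Ski (Il6-/-).

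**Figure D1:**
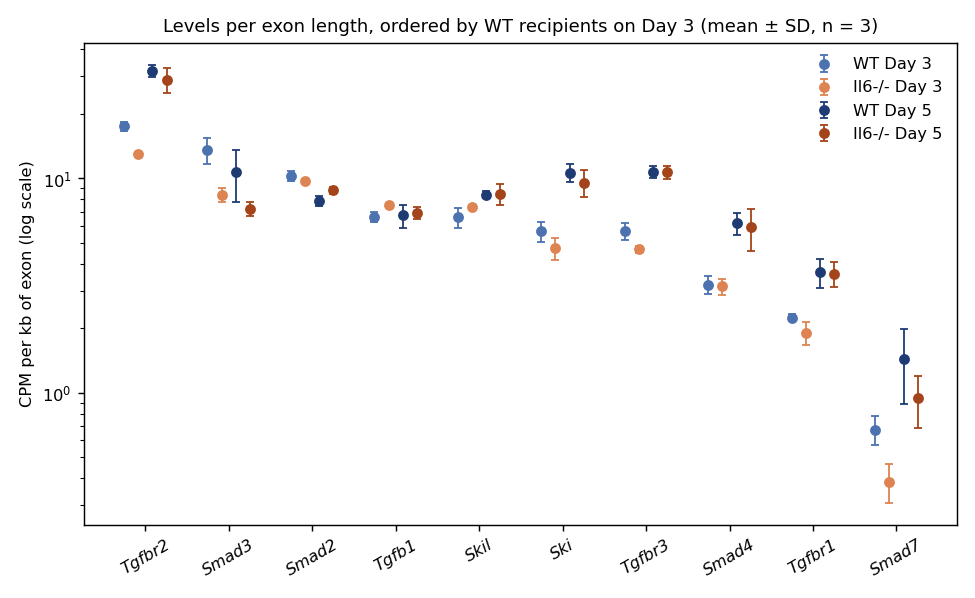
Level of each TGF-β pathway gene in CPM per kb of exon on a log scale, by group, as mean ± SD of 3 libraries; genes are ordered by WT recipients on Day 3. Tgfbr2 is highest and Smad7 lowest in all 4 groups. The means of Tgfbr1, Tgfbr2, Tgfbr3, Smad4, Smad7, Ski and Skil are higher in both Day 5 groups than in both Day 3 groups.

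To examine whether the absence of IL-6 in the recipient was associated with a difference in this pathway, the genotypes were compared on Day 3 and on Day 5 separately. On Day 3, the receptor gene Tgfbr2 and the transducer gene Smad3 were lower when the OTII cells had been primed without host IL-6, at 0.739 and 0.619 times the WT level. The ligand gene Tgfb1, the type I receptor gene Tgfbr1, Smad2, Smad4 and Skil did not pass. Thus 2 of 10 genes passed an FDR of 0.05 in edgeR's quasi-likelihood test, both lower, and neither by 2-fold, where 13.7% of all genes tested passed and 6.19% passed as lower. The median log2 fold change of the 10 genes was -0.25, against 0.01 for all genes tested. Of the 7 CD4 T-cell markers, 2 were also lower in Il6-/- recipients on Day 3, Trac at 0.789 (FDR = 0.00928) and Cd28 at 0.716 times the WT level (FDR = 0.00181), and the summed level of the 7 was 5610 to 5688 CPM against 6044 to 7174 CPM in WT. Among the markers of other cells, Ikzf2 of the 5 regulatory T-cell markers was lower (0.735 times). So was Pecam1 of the 6 lung epithelial and stromal markers (0.734 times). Of the 5 CD8 T- and NK-cell markers, Klrb1c alone passed, with 4.30 times the WT level. The sum of that list, led by Cd8b1 in both genotypes, was 82.8 to 112 CPM against 62.2 to 74.0 CPM for WT. Neither Cd8b1 (log2 fold change 0.25, FDR = 0.192) nor Cd8a (0.33, FDR = 0.820) passed, and Ncr1 and Klrk1 were not tested. In the same regulatory T-cell list Il2ra went the other way, with 3.00 times the WT level. Sftpc of the lung list was also higher (log2 fold change 5.59, SE 1.71), although its libraries overlapped between the genotypes. Pax5 of the B-cell list was lower (0.208 times), and none of the myeloid, dendritic-cell or platelet markers passed. The part of these markers in the genotype difference of Tgfbr2 and Smad3 was not tested.

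Smad3 was measured at 91.4, 71.4 and 73.1 CPM in the WT libraries and at 48.1, 45.2 and 52.8 CPM in the Il6-/- libraries. Every WT library was above every Il6-/- library, and the log2 fold change was -0.69 (SE 0.16, FDR = 0.0111). Leaving out Il6-/- Day 3 replicate 2 took the FDR of Smad3 to 0.0556, and no other library did so. Tgfbr2, the receptor that binds the ligand first, was at 147, 154 and 162 CPM in WT and at 112, 116 and 114 CPM in Il6-/- recipients. The groups were again apart, with a log2 fold change of -0.44 (SE 0.09, FDR = 0.00572), and Tgfbr2 passed with each of the 12 libraries left out in turn.

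Libraries of 5 of the 10 genes did not overlap between the genotypes on Day 3, with Tgfb1 higher and Tgfbr2, Tgfbr3, Smad3 and Smad7 lower in Il6-/- recipients, where 36.2% of all genes tested did not overlap. Smad7, the inhibitor of the receptor, was at 3.75, 2.77 and 3.09 CPM in WT and at 2.22, 1.80 and 1.47 CPM in Il6-/- recipients, from 31 to 96 counts per library. Its log2 fold change of -0.81 had an SE of 0.32 and an FDR of 0.108, so the largest difference of the 10 was also the least precise. It passed with the replicate number as a block over all libraries (FDR = 0.0465) and with a block within each day (FDR = 0.0382). The latter block was added after seeing the data, and with it 19.6% of all genes tested passed in place of 13.7%. Tgfbr3, the coreceptor, was at 42.3, 39.1 and 35.1 CPM in WT and at 30.8, 33.0 and 32.3 CPM in Il6-/- recipients, with a log2 fold change of -0.28 and an FDR of 0.0612. It passed in 4 of 12 alternatives other than leaving out a library, and without Il6-/- Day 5 replicate 2 (FDR = 0.0322). Tgfb1 was at 35.9, 32.9 and 32.5 CPM in WT and at 37.8, 37.8 and 38.8 CPM in Il6-/- recipients (log2 fold change 0.18, FDR = 0.297). Neither gene passed the test although the libraries were apart. The repressor gene Ski was at 34.4 ± 3.68 CPM in WT and 28.6 ± 3.35 in Il6-/- recipients (SD, n = 3, FDR = 0.200, and 0.0478 with the block within each day) and its relative Skil at 66.5 ± 7.37 and 74.4 ± 0.722 (FDR = 0.305). The 95% intervals of the log2 difference ran from -0.23 to 0.08 for Smad2, from -0.34 to 0.30 for Smad4 and from -0.54 to 0.07 for Tgfbr1.

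**Figure D2:**
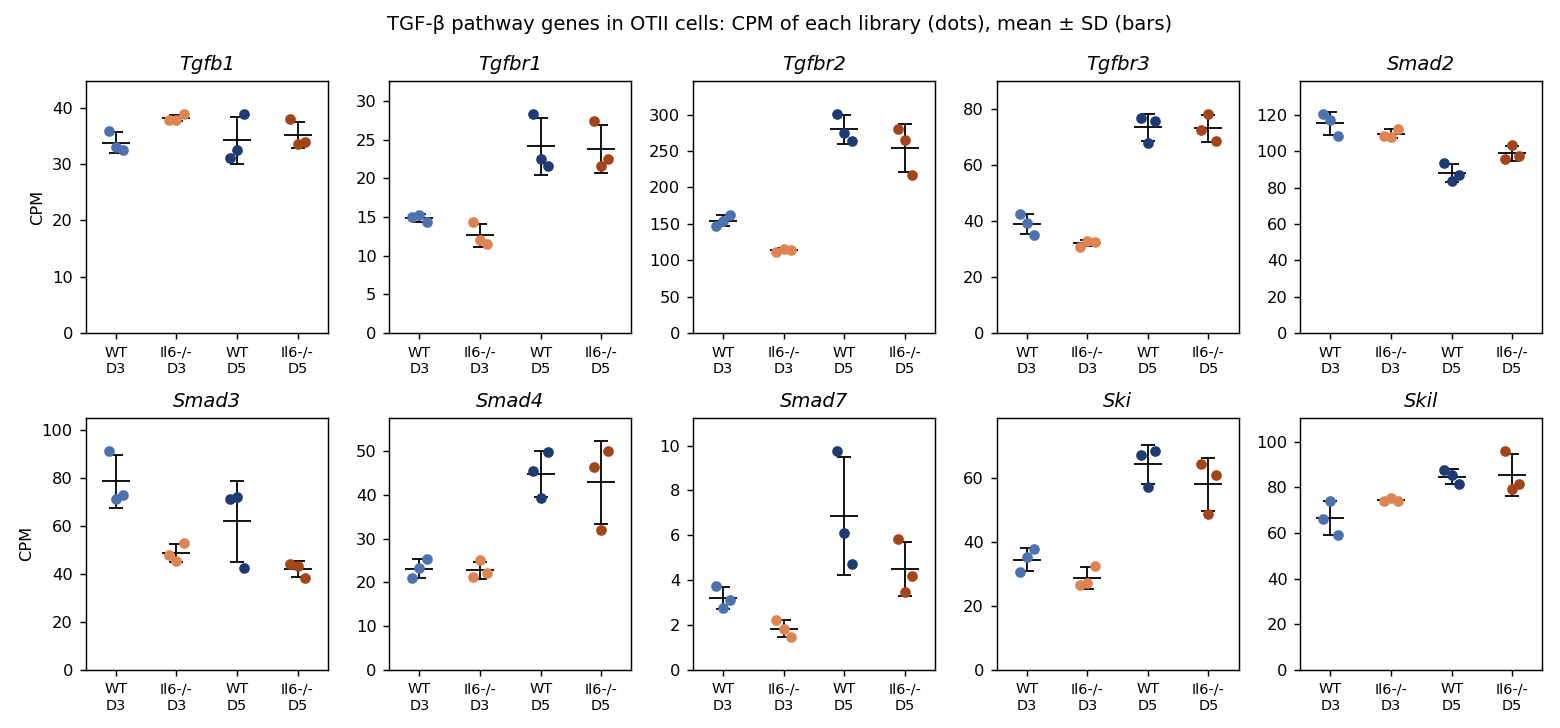
CPM of the 10 genes in each of the 12 libraries (dots) with the mean ± SD of the 3 libraries of a group (bars); D3 and D5 are Day 3 and Day 5, and every axis starts at 0. Smad3 and Tgfbr2 of the Il6-/- Day 3 libraries lie below all WT Day 3 libraries, and 1 WT Day 5 library of Smad3, at 42.4 CPM, lies within the range of the Il6-/- Day 5 libraries.

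On Day 5, none of the 10 genes passed between the genotypes in edgeR's test, where 4.61% of all genes tested passed; 2 had an unadjusted p under 0.05 and 1 passed with DESeq2. Smad3 was 0.678 times the WT level in OTII cells from Il6-/- recipients and did not pass. Its levels were 71.3, 71.9 and 42.4 CPM in WT and 44.2, 43.4 and 38.2 CPM in Il6-/- recipients. WT replicate 3 lay among the Il6-/- libraries, and the other two WT libraries lay above all of them. The log2 fold change of Smad3 was -0.56 (SE 0.17, FDR = 0.0669), and without WT Day 5 replicate 3 it was -0.77 (FDR = 0.00100). Libraries with the same replicate number deviated together on Day 5, and in a fit with a replicate block within each day the log2 fold change of Smad3 was -0.53 with an FDR of 0.0104. That block was added after seeing the data, and with it 11.7% of all genes tested passed in place of 4.61%. DESeq2 gave -0.53 with an FDR of 0.0206.

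Smad2 was the other gene with an unadjusted p under 0.05 on Day 5, at 93.6, 83.8 and 87.3 CPM in WT and 95.9, 104 and 97.4 CPM in Il6-/- recipients. It was the only 1 of the 10 whose libraries did not overlap between the genotypes, which held for 19.6% of all genes tested, and its log2 fold change was 0.17 (FDR = 0.225). Tgfbr2, which was lower on Day 3, was at 301, 274 and 264 CPM in WT and at 280, 266 and 217 CPM in Il6-/- recipients on Day 5. These libraries overlapped, with a log2 fold change of -0.14 (95% interval -0.33 to 0.06; FDR = 0.442). The 95% interval ran from -0.20 to 0.19 for Tgfbr3, from -0.18 to 0.26 for Tgfb1 and from -0.19 to 0.21 for Skil, and the wider one of Smad7, from -1.24 to 0.02, still held a difference of 2-fold. The median log2 fold change of the 10 genes on Day 5 was -0.04, against 0.01 for all genes tested.

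**Figure D3:**
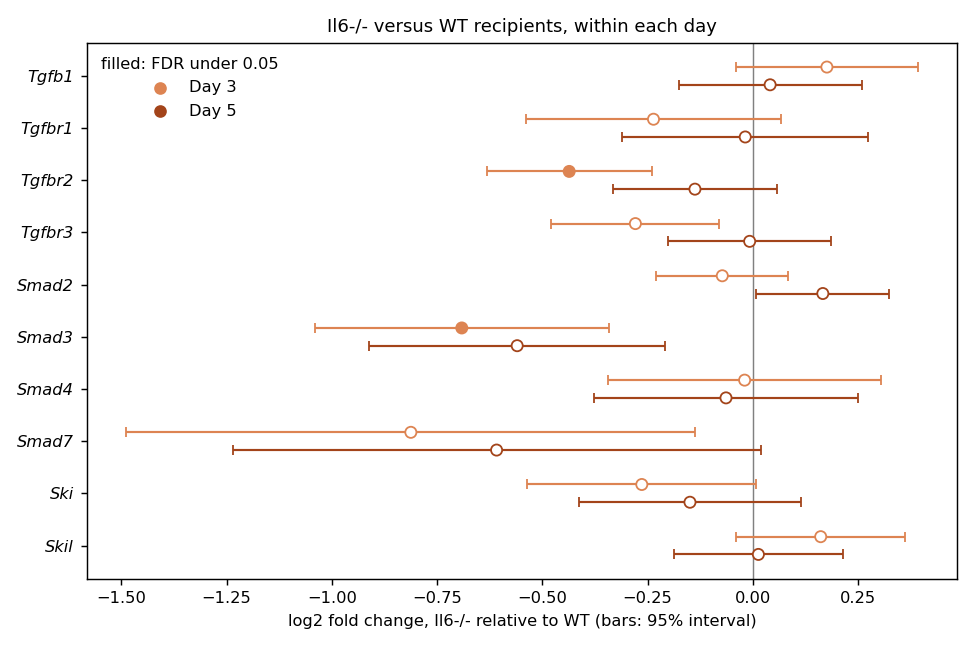
Log2 fold change of the 10 genes in Il6-/- relative to WT recipients on Day 3 and Day 5, with 95% intervals from the edgeR fit; filled points passed an FDR of 0.05. Only Tgfbr2 and Smad3 on Day 3 are filled, and the point of Smad3 lies below 0 on both days, at -0.69 and -0.56.

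An interaction term tested whether the genotype difference changed from Day 3 to Day 5. None of the 10 genes passed in edgeR's test, where 4.92% of all genes tested passed; 2 had an unadjusted p under 0.05 and none passed with DESeq2. Those with the lowest p were Tgfbr2, with a difference of 0.30 on the log2 scale between the days (SE 0.13, FDR = 0.208), and Smad2, with 0.24 (SE 0.10, FDR = 0.211). The interaction of Smad3 was 0.13 with a 95% interval from -0.36 to 0.63. That Tgfbr2 passed on Day 3 and not on Day 5 is therefore not shown to be a difference between the days.

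More of the 10 genes passed between Day 3 and Day 5 than between the genotypes, and this was also so for all genes tested. Of these, 56.7% passed between the days in WT and 60.5% in Il6-/- recipients. Between the genotypes, 13.7% passed on Day 3 and 4.61% on Day 5. In WT recipients, all 3 receptor genes, the common partner Smad4, the inhibitor Smad7 and both repressors were higher on Day 5, and Smad2 was lower, while Smad3 and Tgfb1 did not pass. Of the 10 genes, 7 passed as higher and 1 as lower, where 56.7% of all genes tested passed, 29.5% as higher and 27.1% as lower. Only 1 of the 10, Smad7, changed by at least 2-fold, a size that 22.1% of all genes tested reached in either direction. The median log2 fold change was 0.78, against 0.09 for all genes tested. Libraries of 8 of the 10 genes did not overlap, against 63.3% of all genes tested.

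Among the receptor genes in WT recipients, Tgfbr2 rose from 154 ± 7.30 CPM on Day 3 to 279 ± 19.3 CPM on Day 5 (SD, n = 3), a log2 fold change of 0.86 (SE 0.09, FDR = 1.59e-06). Tgfbr3 rose from 38.8 ± 3.59 to 73.4 ± 4.78 CPM (log2 fold change 0.92, SE 0.09, FDR = 8.77e-07). Tgfbr1 was at 15.0, 15.3 and 14.3 CPM on Day 3 and at 28.4, 22.5 and 21.6 CPM on Day 5, a log2 fold change of 0.70 (SE 0.14, FDR = 0.000548). All 3 receptor genes thus rose with no overlap between the days. Among the transducers, Smad4 was at 20.9, 23.2 and 25.3 CPM on Day 3 and at 45.5, 39.2 and 49.8 CPM on Day 5 (log2 fold change 0.96, SE 0.15, FDR = 6.79e-05). Smad2 moved the other way, from 121, 117 and 109 CPM to 93.6, 83.8 and 87.3 CPM (log2 fold change -0.39, SE 0.07, FDR = 0.000374). Smad3, whose WT Day 5 replicate 3 was low, had a log2 fold change of -0.35 (FDR = 0.0795) and of -0.14 without that library. It passed in 6 of 12 alternatives other than leaving out a library, among them the replicate block within each day (FDR = 0.0122), and without WT Day 5 replicate 1 (FDR = 0.0405), WT Day 5 replicate 2 (FDR = 0.0365) or Il6-/- Day 5 replicate 2 (FDR = 0.0435). Smad4, the common partner of the SMADs, and the receptor-regulated Smad2 thus changed in opposite directions.

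Both kinds of negative regulator were higher on Day 5 in WT recipients. Smad7 was at 9.77, 6.08 and 4.70 CPM on Day 5, from 100 to 192 counts per library, against 2.77 to 3.75 CPM on Day 3, with a log2 fold change of 1.09 (SE 0.30, FDR = 0.00583). Ski rose from 34.4 ± 3.68 to 64.3 ± 6.13 CPM (log2 fold change 0.90, SE 0.13, FDR = 2.21e-05) and Skil from 66.5 ± 7.37 to 84.8 ± 3.23 CPM (log2 fold change 0.35, SE 0.09, FDR = 0.00535). Tgfb1 was at 33.8 ± 1.86 CPM on Day 3 and 34.2 ± 4.15 on Day 5, and the 95% interval of its log2 change ran from -0.20 to 0.23.

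In Il6-/- recipients, 6 of the 10 genes passed, all higher on Day 5, where 60.5% of all genes tested passed and 30.4% passed as higher. They were Tgfbr1, Tgfbr2, Tgfbr3, Smad4, Smad7 and Ski, of which 4, Tgfbr2, Tgfbr3, Smad7 and Ski, rose by at least 2-fold, a size that 25.9% of all genes tested reached in either direction. Tgfbr2 went from 112, 116 and 114 CPM to 280, 266 and 217 CPM, a log2 fold change of 1.16 (SE 0.09, FDR = 7.95e-08), and Tgfbr3 from 30.8, 33.0 and 32.3 CPM to 72.4, 78.2 and 68.5 CPM, of 1.19 (SE 0.09, FDR = 6.84e-08). Tgfbr1 rose by 0.92 on the log2 scale and Smad4 by 0.91. Smad7 went from 2.22, 1.80 and 1.47 CPM to 5.82, 3.46 and 4.16 CPM (log2 fold change 1.29, SE 0.32, FDR = 0.00241) and Ski from 28.6 ± 3.35 to 57.9 ± 8.20 CPM (log2 fold change 1.02, SE 0.13, FDR = 6.01e-06). In each of these 6 genes the lowest Day 5 library was above the highest Day 3 library. The libraries of 9 of the 10 genes did not overlap between the days, against 65.8% of all genes tested, and the median log2 fold change was 0.91, against 0.09 for all genes tested.

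Skil in Il6-/- recipients was at 73.8, 75.2 and 74.2 CPM on Day 3 and 96.1, 79.1 and 81.3 CPM on Day 5 and did not pass (log2 fold change 0.20, FDR = 0.0774). It passed in 6 of 12 alternatives other than leaving out a library, and without Il6-/- Day 5 replicate 2 (FDR = 0.0313). Smad2 had a log2 fold change of -0.15 (FDR = 0.0911) and Smad3 of -0.22 (FDR = 0.270, and 0.0442 with no low-count filter). That of Tgfb1 was -0.12 (FDR = 0.330, and 0.0116 with the GC-content offset). The 3 values of Smad2, Smad3 and Tgfb1 turned to 0.08, 0.01 and 0.11 with upper-quartile scaling. That scaling moved the median of all genes by 0.20 in WT and by 0.23 in Il6-/- recipients and the share of passing genes that were higher from 52.1% to 66.5% and from 50.2% to 65.0%, whereas no scaling moved the median by 0.15 in Il6-/- recipients and gave 60.4% higher. The direction of the genes that passed on either day comparison was the same under every scaling. The 7 CD4 T-cell markers also all passed as higher on Day 5 in both genotypes, with median log2 fold changes of 0.53 and 0.62, and the share of reads outside genes was higher. Of the lung epithelial and stromal markers, 3 of the 5 tested rose in WT and 2 in Il6-/- recipients, of 6 myeloid and dendritic-cell markers 1 rose and 1 fell in WT and 3 rose in Il6-/- recipients, and of 3 B-cell markers 1 rose in WT and 2 in Il6-/- recipients. Of 5 regulatory T-cell markers 2 rose and 2 fell in WT and 2 rose and 1 fell in Il6-/- recipients, and of 3 CD8 T- and NK-cell markers 1 rose and 1 fell in WT and 1 fell in Il6-/- recipients, with no platelet marker passing. The part of these markers in the change of the TGF-β pathway genes was not tested. The comparisons share their samples, so the changes in WT and Il6-/- recipients and the differences between genotypes are not independent of each other.

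**Figure D4:**
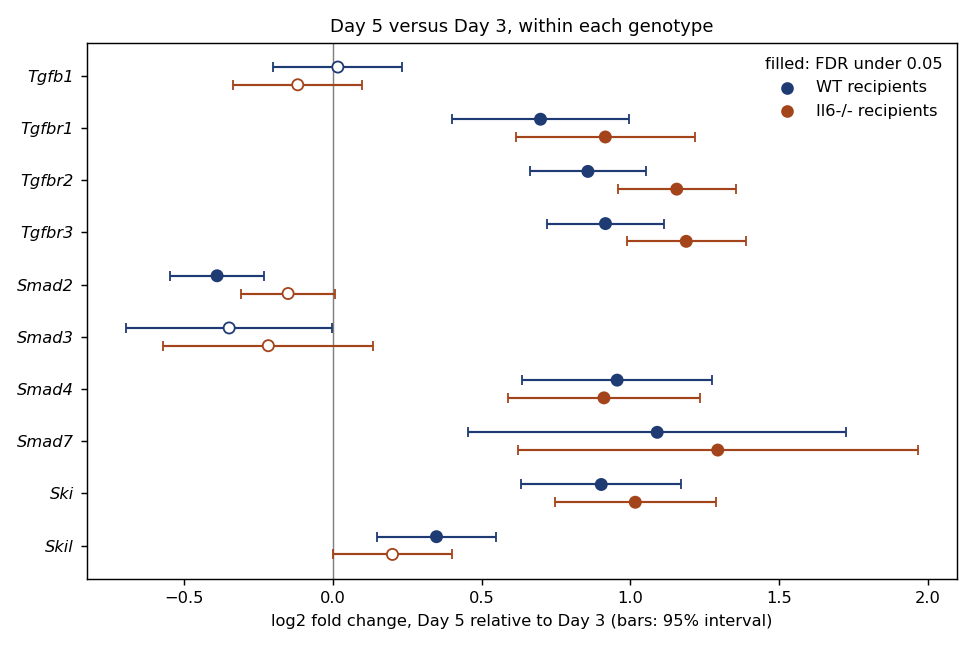
Log2 fold change of the 10 genes on Day 5 relative to Day 3, for WT and for Il6-/- separately, with 95% intervals from the edgeR fit; filled points passed an FDR of 0.05. Tgfbr1, Tgfbr2, Tgfbr3, Smad4, Smad7 and Ski are filled and above 0 in both genotypes, from 0.70 to 1.29, and Smad2 is filled and below 0 in WT recipients at -0.39.

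Other genes of the pathway were examined by list, and their counts stand beside the shares of all genes tested that passed, which were 13.7% and 4.61% between the genotypes on Day 3 and Day 5 and 56.7% and 60.5% between the days in WT and Il6-/- recipients. Of 17 genes for other ligands, receptors and receptor-regulated SMADs of the family, 9 were tested, and 3 were lower in Il6-/- recipients on Day 3 and 2 on Day 5, with none higher. Tgfb3, a second TGF-β ligand gene, was at 15.4, 12.5 and 14.6 CPM in WT and at 1.74, 3.98 and 3.22 CPM in Il6-/- recipients on Day 3 (log2 fold change -2.25, SE 0.31, FDR = 0.000277). In WT recipients it fell to 0.177 times its Day 3 level by Day 5 (FDR = 6.83e-06), when its levels were 1.83 to 2.87 CPM in WT and 2.06 to 4.33 CPM in Il6-/- recipients. Tgfb1, given above, passed in neither comparison. Acvrl1, which encodes the type I receptor ALK1, was lower in Il6-/- recipients on Day 3 (log2 fold change -1.70, FDR = 0.00379) and on Day 5 (-1.16, FDR = 0.0377), and it rose between the days by 1.53 in WT and 2.07 in Il6-/- recipients. The Day 5 difference of Acvrl1 had an FDR of 0.199 without WT Day 5 replicate 1, which had 27.8 CPM against 17.6 and 15.4 in the other two. Smad1, a transducer of the bone morphogenetic protein branch, was lower in Il6-/- recipients on Day 5 (log2 fold change -1.06, FDR = 0.00888), with 18.6, 16.5 and 10 CPM in WT and 7.35, 7.61 and 6.71 CPM in Il6-/- recipients. From Day 3 to Day 5, 3 of the 9 genes rose and 1 fell in WT recipients, and 5 rose and 1 fell in Il6-/- recipients, among them the activin receptor genes Acvr2a (1.38 in WT) and Acvr1b (0.84 in Il6-/- recipients).

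Of 11 genes for the latency and activation of the ligand, 6 were tested. In edgeR's test none passed between the genotypes on Day 3 or on Day 5, with 1 at an unadjusted p under 0.05 on each day and 0 with DESeq2. Between the days, 3 rose in WT and 2 in Il6-/- recipients. Nrros, which encodes a protein that tethers latent TGF-β, rose by 0.45 in WT (FDR = 0.000923) and by 0.31 in Il6-/- recipients (FDR = 0.0105). Itgb8, which encodes the β chain of an integrin that activates latent TGF-β, had no count in the WT Day 3 libraries and 7, 16 and 11 counts in the WT Day 5 libraries (FDR = 0.00129), and 0 to 2 counts and 6 to 33 counts in the Il6-/- libraries (FDR = 0.00282). These counts are too few for a fold change.

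The SMAD regulators and cofactors moved between the days in both directions. Of the 26 genes listed, 24 were tested, of which 11 rose and 5 fell in WT and 10 rose and 8 fell in Il6-/- recipients, where 56.7% and 60.5% of all genes tested passed. Their median log2 fold changes were 0.16 and 0.12, against 0.09 for all genes tested in both. Tgif1, a SMAD corepressor gene, rose by 1.81 in WT and by 1.79 in Il6-/- recipients (FDR = 7.07e-06 and 7.37e-06). Rnf111, which encodes the ubiquitin ligase Arkadia that targets SMAD7 and SKIL, rose by 1.06 in WT recipients (FDR = 2.99e-06) and Tab2, an adaptor of the kinase TAK1, by 0.69 in Il6-/- recipients (FDR = 1.53e-05). Strap, whose product stabilizes SMAD7 at the receptor, fell by 0.95 on the log2 scale in WT and dropped by 1.06 in Il6-/- recipients. The corepressor gene Sin3a fell by 0.62 in WT recipients and Usp15, a deubiquitinase of receptor-regulated SMADs, decreased by 0.53 in Il6-/- recipients. Between the genotypes on Day 3, 3 of the 24 were higher in Il6-/- recipients, with Strap at 0.29 (FDR = 0.0235) and Ldlrad4, an inhibitor of SMAD activation, at 0.32 (FDR = 0.0275). None of the 24 passed on Day 5 in edgeR's test, with 6 at an unadjusted p under 0.05 and 0 with DESeq2. Smad6, the other inhibitory SMAD gene, had at most 1 count in any library and was not tested.

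Genes that TGF-β is known to induce or repress in T cells were examined next. Of 15 TGF-β-induced genes, 11 were tested, of which 1 was higher in Il6-/- recipients on Day 3. That gene was Ldlrad4, which is also among the SMAD regulators. Foxp3 was at 6.63, 6.08 and 10.1 CPM in WT and 5.81, 3.92 and 5.49 CPM in Il6-/- recipients on Day 3 and did not pass on Day 3 (FDR = 0.311) or Day 5 (log2 fold change 0.72, FDR = 0.286, and FDR = 0.0489 with a replicate block within each day). It fell by 1.42 on the log2 scale from Day 3 to Day 5 in WT recipients (FDR = 0.00330), and its log2 fold change in Il6-/- recipients was -0.12 (FDR = 0.786), a difference between the genotypes that did not pass (interaction 1.30, FDR = 0.154). The interaction of Foxp3 passed with the replicate block within each day (1.33, FDR = 0.0159), with no low-count filter (FDR = 0.0195) and without WT Day 5 replicate 1 (FDR = 0.0457). Itgae, which encodes CD103, had 8 to 31 counts per library and did not pass in any comparison (FDR = 0.0787 or more). Its change between the days in Il6-/- recipients passed with upper-quartile scaling (FDR = 0.0335), with no scaling (FDR = 0.0446) and without Il6-/- Day 3 replicate 1 (FDR = 0.0469). Pmepa1, a feedback inhibitor of SMAD signaling, was at 7.84 to 10 CPM in WT and 11.1 to 14.4 CPM in Il6-/- recipients on Day 3 (log2 fold change 0.50, FDR = 0.0738) and rose in WT recipients by 0.53 to Day 5 (FDR = 0.0174). Its change between the days in Il6-/- recipients was -0.22 (FDR = 0.278), and its genotype difference on Day 5 was -0.26 (FDR = 0.452). The Pmepa1 interaction of -0.75 did not pass (FDR = 0.0930). It passed with DESeq2 (FDR = 0.0483) and without Il6-/- Day 5 replicate 1 (FDR = 0.0284). Between the days, 5 of the 11 rose and 2 fell in WT and 3 rose and 1 fell in Il6-/- recipients. Nt5e, which encodes CD73, rose by 1.14 and 1.40.

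All 11 TGF-β-repressed genes were tested. On Day 3, 3 were higher and 2 lower in Il6-/- recipients. Tbx21, which encodes the Th1 regulator T-bet, was at 2.65, 2.32 and 2.71 CPM in WT and at 12.1, 16.3 and 14.7 CPM in Il6-/- recipients (log2 fold change 2.49, FDR = 8.70e-05), and Fasl was higher by 1.28 (FDR = 0.0211). S1pr1, the receptor for sphingosine 1-phosphate that guides exit from lymph nodes, was lower by a log2 fold change of -1.08 (FDR = 1.15e-05), and Klf2, its transcriptional activator, of -0.86 (FDR = 0.0472). WT Day 3 replicate 1 had 90.2 CPM of Klf2 against 44.1 and 50.7 in the other two, and without it the FDR of Klf2 was 0.248. On Day 5, the Th2 regulator gene Gata3 alone passed, higher by 0.35 (FDR = 0.0383), and its FDR was 0.155 without WT Day 5 replicate 1. Between the days, 6 of the 11 rose in WT and 6 rose and 1 fell in Il6-/- recipients, with Fasl higher by 4.27 and 2.79, Il2 by 2.42 in WT recipients and S1pr1 by 1.2 in Il6-/- recipients, and Tbx21 lower by a log2 fold change of -1.40 in Il6-/- recipients.

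The 3 genes of the 10 with the widest range of group means were Smad7 (1.80 on the log2 scale), Tgfbr2 (1.29) and Tgfbr3 (1.19). For each, the genes with the most similar pattern over the 12 libraries were found among all genes tested, by the root mean square difference of log2 CPM after centering each gene on its own mean. Nearest to Smad7 were Arhgef10 at 0.22 and Nanos1 at 0.26, nearest to Tgfbr2 were Hsdl1 at 0.07 and Gpcpd1 at 0.09, and nearest to Tgfbr3 were Pld3 at 0.09 and Uckl1 at 0.10. On Day 3, Hsdl1 was at 149 ± 4.20 CPM in WT and 104 ± 6.87 in Il6-/- recipients, and at 270.3 ± 16.7 and 232 ± 20 on Day 5 (SD, n = 3). Its order of the 4 groups was that of Tgfbr2, as the selection by likeness requires.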

How the data were processed

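RNA-seq libraries of sorted OTII cells were made from ultra-low input poly(A) RNA. According to the submitters' processing notes and the methods, the authors used Trim Galore 0.4.4 for trimming, STAR 2.5.2a for alignment to GRCm39 and HTSeq 0.6.1p1, unstranded, for counting. What was deposited for each library is raw counts per gene symbol; the HTSeq summary rows were left out of library sizes and tests, and between 52.5% and 62.2% of a library's reads were on genes. The authors also deposited a table of log2 CPM made with edgeR for 11258 genes, including the 10 described here, used only in an alternative.

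Samples were grouped by the labels. In edgeR 4.0.16 (R 4.3.3), genes were kept by filterByExpr, library sizes were scaled by TMM and all 4 groups entered a single quasi-likelihood model, and p-values were adjusted by Benjamini-Hochberg over all 13570 genes tested; the code was tested on simulated data. A gene passed at an FDR under 0.05. Log2 CPM used a prior count of 2. With 3 libraries against 3, an exact permutation test cannot go below 0.1. Intervals cover the spread of the fit. No 2 libraries of a group held identical counts. Gene positions, exon lengths and start windows came from GENCODE on GRCm39; the authors' annotation was not used here.

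Same-numbered libraries of the genotypes correlated in their deviations from the group means by 0.129 to 0.243 on Day 5 and by 0.0325 to 0.0599 on Day 3; the pairing is read from the data, and the labels give only the numbers. The block within each day was added after seeing the data. The other alternatives were RLE, upper-quartile or no scaling, no filter, a filter of over 1 CPM in 3 or more libraries, limma 3.58.1 (voom, and trend on the deposited table), DESeq2 1.42.0, a replicate block, a GC-content offset, only the groups compared, and each library left out. The 10 genes, the gene lists and the marker lists were chosen with earlier results of these data known. Of the lists, the genes named are the 2 with the smallest p per direction and comparison among those that passed, plus Foxp3, Itgae, Pmepa1 and Smad6. The genotype result of 1 listed gene is not reported here.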

Additional observations from a re-analysis of the deposited data

Results flagged for a closer look

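The genotype difference of 3 genes of the pathway lists differed between the days in the interaction test, and none of the 10 core genes did. For Tgfb3 the interaction was 2.65 on the log2 scale (FDR = 0.00553), from a log2 fold change of -2.25 in Il6-/- relative to WT recipients on Day 3 to no difference that passed on Day 5, and it passed under every alternative and with each library left out (2.38 to 2.90). For S1pr1 it was 0.93 (FDR = 0.00414), with 106, 106 and 131 CPM in Il6-/- and 211, 260.1 and 258 CPM in WT recipients on Day 3 and 244 to 276 and 283 to 302 CPM on Day 5, and it also passed under every alternative and with each library left out (0.87 to 1.04). For Smad1 it was -1.04 (FDR = 0.0492), with 11.2 to 15.4 CPM in WT and 12.1 to 13.1 CPM in Il6-/- recipients on Day 3. The Smad1 interaction did not pass in 10 of the 12 fits that left out 1 library (FDR up to 0.124), and it did not pass in 3 of the other alternatives, namely no scaling, limma-voom and limma-trend (FDR up to 0.0897).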

How the results depend on the processing

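The counts of the 10 genes that passed were within 1.5 times the values reported in all alternatives, with these exceptions. The Day 3 genotype count was 4 in place of 2 with the replicate block within each day, which added Smad7 (FDR = 0.0382) and Ski (FDR = 0.0478) and where 19.6% of all genes passed in place of 13.7%, and ranged from 1 to 3 with 1 library left out, with Tgfbr3 added without Il6-/- Day 5 replicate 2 (FDR = 0.0322). The Day 5 genotype count was 1 in place of 0, Smad3 each time, with upper-quartile scaling, no low-count filter, DESeq2 and the replicate block within each day (11.7% of all genes in place of 4.61%), and ranged from 0 to 1 with 1 library left out, passing without WT Day 5 replicate 3. With the replicate number as a block over all libraries the counts were 3, 0, 8, 6 and 0 for the 5 comparisons (genotype on Day 3, with Smad7 added, and Day 5, day within WT and within Il6-/-, interaction), where 14.0%, 4.63%, 56.9%, 60.2% and 5.06% of all genes passed. Of the other genes named, the Day 3 genotype calls of Strap, Ldlrad4 and Fasl were each lost in 4 of the 12 fits that left out a library (FDR up to 0.095, 0.122 and 0.0871), each without WT Day 3 replicate 3, Il6-/- Day 3 replicate 1 or Il6-/- Day 3 replicate 2, and also without WT Day 3 replicate 2 (Strap and Ldlrad4) or replicate 1 (Fasl). That of Klf2 was lost in 7 (up to 0.248 without WT Day 3 replicate 1), and the Day 5 calls of Acvrl1 and Gata3 in 7 and 8 (up to 0.199 and 0.155, both without WT Day 5 replicate 1). Smad1 on Day 5 was lost without WT Day 5 replicate 1 (FDR = 0.0517), Pmepa1 between the days in WT without WT Day 3 replicate 1 (0.0792) or WT Day 5 replicate 2 (0.0565), and Nrros in Il6-/- recipients without Il6-/- Day 3 replicate 2 (0.0654). Under the other alternatives, Klf2 was lost with DESeq2 (0.0623), limma-voom (0.0582), limma-trend (0.0587), the replicate block (0.0666) and the GC-content offset (0.0671), Acvrl1 on Day 5 with the replicate block (0.0522), and Gata3 with only the groups compared (0.143). Fasl was lost with limma-voom (0.0698) and only the groups compared (0.0548), Ldlrad4 with upper-quartile (0.0604) and no scaling (0.0725), Strap with no scaling (0.078), and Nrros and Pmepa1 between the days with no low-count filter (0.0518 and 0.051) and the GC-content offset (0.0662 and 0.0581). Pmepa1 between the genotypes on Day 3 passed with DESeq2 (0.0407) and the GC-content offset (0.0494), and without Il6-/- Day 5 replicate 1 (0.0413).

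Values that changed sign were small and passed neither as reported nor under the setting that turned them. On Day 5, Tgfbr1 and Tgfbr3 of the genotype comparison were 0.0054 and 0.0159 with RLE scaling, 0.0269 and 0.037 with no scaling and 0.0056 and 0.0157 with DESeq2, and Tgfbr3 was 0.0091 with the GC-content offset. In WT recipients, the Tgfb1 change between the days was -0.0146 with RLE scaling, -0.0496 with no low-count filter, -0.0148 with DESeq2, -0.148 with the GC-content offset and -0.0101 with only the groups compared. In Il6-/- recipients, Tgfb1, Smad2, Smad3, Foxp3 and Pmepa1 were 0.112, 0.0778, 0.0117, 0.114 and 0.0082 with upper-quartile scaling, and Tgfb1, Smad2 and Foxp3 were 0.0327, 0.000876 and 0.0307 with no scaling. The Smad4 interaction was 0.0535 with no scaling. The causes were not tested.

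With 1 library left out, Smad4 ranged from -0.0887 to 0.0496 between the genotypes on Day 3. On Day 5, the ranges were -0.0222 to 0.145 for Tgfb1, -0.131 to 0.113 for Tgfbr1, -0.0594 to 0.0376 for Tgfbr3, -0.191 to 0.130 for Smad4, -0.0793 to 0.0915 for Skil and -0.449 to 0.0518 for Itgae. Between the days they were -0.0891 to 0.078 for Tgfb1 and -0.0266 to 0.287 for Itgae in WT recipients and -0.457 to 0.0628 for Foxp3 in Il6-/- recipients, and in the interaction -0.0809 to 0.255 for Smad3, -0.172 to 0.185 for Smad4 and -0.0306 to 0.549 for Smad7. Depth limits Smad7 most, with 31 to 192 counts per library.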
